A study of Mus musculus with 13 samples.

Results

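Cerebellins, delta-type glutamate receptors and neurexins build a bridge across the synapse. Neurexins sit in the presynaptic membrane, cerebellins are secreted proteins of the C1q family that bind neurexins carrying a particular alternatively spliced insert, and the GluD receptors on the postsynaptic side bind the cerebellins in turn. The bridge is best known from the cerebellum, where Cbln1 from granule cells joins neurexins to a GluD receptor on Purkinje cells, and the forebrain uses GluD1 with other cerebellins. Messenger RNA of 6 genes of this bridge was followed in mouse cortex: the cerebellins Cbln1, Cbln2 and Cbln4, the receptor gene Grid1, which encodes GluD1, and the neurexins Nrxn2 and Nrxn3. They are 6 of the 13482 genes that stand in all 3 of the authors' comparison tables. The set was chosen by name around Cbln1 and Grid1, which were selected on their deposited fold changes in Grn-/-;GRNtg cortex, so the values of Grn-/-;GRNtg mice are given as a description and are not support for a change.

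Cortical RNA of 13 male mice was sequenced at 18 months of age, in 3 genotypes. There were 4 Grn-/-;GRNtg mice, which lack both copies of mouse progranulin, carry a human progranulin transgene and are also called humanized mice here, 4 Grn+/- mice with a single working mouse copy, and 5 wild-type (WT, Grn+/+) mice. No source used here gives the promoter of the transgene, the genetic background or the litters, and total RNA of a mixed tissue cannot separate fewer cells of a type from less RNA per cell. The files analysed are comparison tables with no value per mouse, so whether single mice of different genotypes overlap cannot be shown. The standard error (SE) of the log2 fold change is given as the uncertainty of each value.

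The deposited tables give 1 mean normalized count per gene over the libraries, and these means summed to 18113972 over all genes. Mouse Grn checked the labels: in the authors' deposited tables its log2 fold change was -2.02 ± 0.081 (SE) in Grn-/-;GRNtg against WT, -0.65 ± 0.077 in Grn+/- against WT and -1.36 ± 0.085 in Grn-/-;GRNtg against Grn+/-. The value in Grn-/-;GRNtg against WT is short of a full loss of Grn counts, and the source of the remainder was not tested. The row of unassigned reads (no_feature) was below WT in both mutant groups. It was at -0.18 ± 0.052 in Grn-/-;GRNtg and -0.22 ± 0.052 in Grn+/- against WT in the authors' deposited tables. The authors' Wald test gave adjusted p of 0.024 and 0.0019. Between the mutant groups this row was at 0.04 ± 0.054 (adjusted p = 0.91, the authors' deposited table). The part of unassigned reads in the results was not tested. A gene counts as passing where the authors' adjusted p was under 0.05 over the whole table. That held for 728 of 14961 genes in Grn-/-;GRNtg against WT, 917 of 13482 in Grn+/- against WT and 82 of 17562 in Grn-/-;GRNtg against Grn+/-. By the authors' Wald test, 3068 of 14961 genes had an unadjusted p under 0.05 in Grn-/-;GRNtg against WT. The numbers were 2722 of 13482 in Grn+/- against WT and 1578 of 17562 in Grn-/-;GRNtg against Grn+/-.

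Levels of the 6 genes were compared per kilobase of annotated exon. Nrxn2 was the most abundant, at 664 mean normalized counts per kb of exon in the authors' deposited tables. Nrxn3 (254), Cbln2 (227) and Grid1 (215) lay close together on that scale, followed by Cbln4 (128) and Cbln1 (72.9). Cbln3, a cerebellin of cerebellar granule cells, had 2.28 mean normalized counts per kb. These levels are means over all libraries with no spread between mice, so genes that stand close together cannot be put in order. All 6 genes passed the filter of every table.

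The cerebellin genes are compact and the receptor and neurexin genes are among the long genes of the genome. Cbln1 lies on chromosome 8 from 87468405 to 87472609 on the minus strand (GRCm38, GENCODE M21), with 3.04 kb of exon in a span of 4.2 kb. Grid1 lies on chromosome 14 from 34820108 to 35583379 on the plus strand, a span of 763.3 kb that holds 5.96 kb of exon. Nrxn2 spans 125.4 kb on chromosome 19 (6418731 to 6544169, plus strand) and Nrxn3 spans 1612.1 kb on chromosome 12 (88722876 to 90334935, plus strand). Neurexin genes make long alpha and short beta forms from separate promoters and splice extensively, with 18 annotated transcripts of Nrxn2 and 13 of Nrxn3, and a count per gene adds all of them up. Slc22a12, on the other strand inside Nrxn2, averaged 3.22 normalized counts over the libraries (the authors' deposited table). The cerebellin-binding insert of the neurexins can therefore not be followed here.

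Cbln1 was the member with the largest fold changes, and by sign the mutant genotypes stood on opposite sides of WT. Its log2 fold change was 0.51 ± 0.138 (SE) in humanized against WT mice, or 142% of the WT level (adjusted p = 0.013, the authors' deposited table). It was -0.38 ± 0.138 in Grn+/- against WT in the authors' deposited table, 76.9% of WT, and did not pass (unadjusted p = 0.0060, adjusted p = 0.071). Set directly against Grn+/-, Cbln1 in Grn-/-;GRNtg had a log2 fold change of 0.88 ± 0.138, or 185% of the Grn+/- level (adjusted p = 4.1e-07, the authors' deposited table). By p-value this placed Cbln1 at rank 6 of 17562 genes in that table, and at rank 274 of 14961 genes in humanized against WT mice. Cbln1 was picked for these rises, so its ranks describe the choice.

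**Figure D1:**
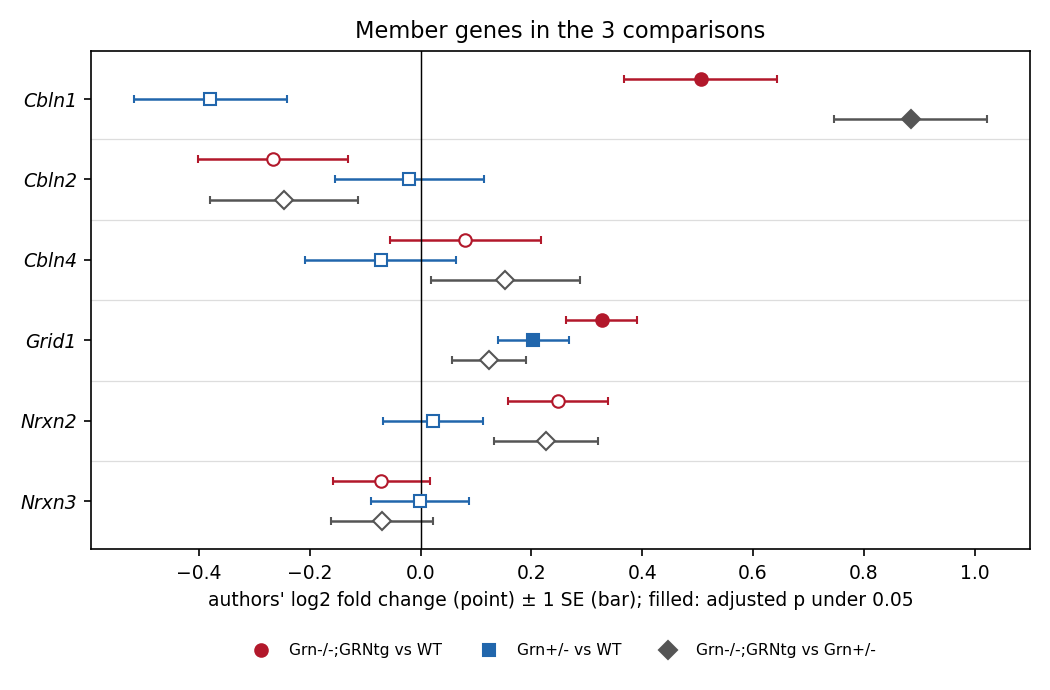
Log2 fold change (horizontal axis) of the 6 member genes in the 3 comparisons, with points for the authors' deposited value, bars for 1 SE and filled points for an adjusted p under 0.05. Cbln1 lies at 0.51 and 0.88 in the comparisons with Grn-/-;GRNtg on top and at -0.38 in Grn+/- against WT, while Grid1 is above 0 in both mutant groups.

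A long noncoding RNA, Gm2694, is annotated across the whole of Cbln1 on the opposite strand (chromosome 8, 87460469 to 87525554). Its log2 fold changes were 0.27 ± 0.137 in humanized against WT mice, -0.13 ± 0.137 in Grn+/- against WT and 0.40 ± 0.137 in humanized against Grn+/- mice in the authors' deposited tables. None of the 3 passed, with adjusted p of 0.24, 0.67 and 0.21 in the authors' deposited tables. The sign of Gm2694 was that of Cbln1 in every table, at a mean normalized count of 29.3 against 221 for Cbln1. The library kit keeps strand, but no source used here gives the strand setting of the counting. The overlap was found from gene starts and ends, and whether exons overlap was not checked. Reads of the overlapping genes may have been shared, so Cbln1 and Gm2694 are not taken as independent readings.

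Grid1 was higher in both mutant genotypes. Its log2 fold change was 0.33 ± 0.064 (SE) in humanized against WT mice, or 125% of the WT level (adjusted p = 0.00012, the authors' deposited table). Grid1 also rose in Grn+/- against WT, a comparison that did not choose it but uses the same WT mice, by 0.20 ± 0.064, or to 115% of the WT level (adjusted p = 0.031, the authors' deposited table). It did not pass between the mutant groups, at 0.12 ± 0.067 in humanized against Grn+/- mice (adjusted p = 0.59, the authors' deposited table), and the 95% interval of that difference ran from -0.01 to 0.25. No other gene listed in the tables overlaps Grid1 in the annotation. The unlike behaviour of Cbln1 and Grid1 in Grn+/- mice was not tested as such.

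The other cerebellins did not pass in any comparison. Cbln2, which is prominent in the forebrain, was at -0.27 ± 0.135 in humanized against WT mice (unadjusted p = 0.048, adjusted p = 0.24), -0.02 ± 0.135 in Grn+/- against WT and -0.25 ± 0.133 in humanized against Grn+/- mice in the authors' deposited tables. Its sign in both comparisons of humanized mice was opposite to that of Cbln1. Cbln4, known in cortex from somatostatin interneurons, was at 0.08 ± 0.136, -0.07 ± 0.136 and 0.15 ± 0.134 in the same order in the authors' deposited tables. The 95% interval of Cbln4 in humanized against WT mice ran from -0.19 to 0.35, wide enough to hold changes as large as that of Grid1. Cbln3 was at 0.18 ± 0.118 in humanized against WT mice and 0.09 ± 0.115 in humanized against Grn+/- mice in the authors' deposited tables, neither passing, and stands in no row of the third table.

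The neurexins did not pass either, and their values differed by gene. Nrxn2 was at 0.25 ± 0.091 in humanized against WT mice (unadjusted p = 0.0061, adjusted p = 0.080), 0.02 ± 0.091 in Grn+/- against WT and 0.23 ± 0.094 in humanized against Grn+/- mice (adjusted p = 0.40) in the authors' deposited tables. Nrxn3 stayed near 0 in all of them, at -0.07 ± 0.088, -0.0008 ± 0.088 and -0.07 ± 0.091 in the same order in the authors' deposited tables, with 95% intervals that reached no further than -0.25 and 0.17.

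Counted over the set, 2 of 6 members were higher and 0 lower in humanized against WT mice, where 1.81% of all genes were higher and 3.05% lower. For Grn+/- against WT, 1 of 6 was higher and 0 lower, beside 2.29% and 4.51% of all genes. For humanized against Grn+/- mice, 1 of 6 was higher and 0 lower, beside 0.319% and 0.148% of all genes. Each of these counts holds Cbln1 or Grid1, around which the set was chosen, so nothing is read from them. The 1 in Grn+/- against WT is Grid1, and that comparison uses the same WT mice. When the Wald statistics of each table were scaled by their robust spread over all genes, Grid1 and Cbln1 no longer passed against WT (adjusted p = 0.39 and 0.99 in Grn-/-;GRNtg, and 0.67 for Grid1 in Grn+/-), and Cbln1 in humanized against Grn+/- mice still passed.

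The SE of these values differed within the set. The SE of Cbln1 in humanized against WT mice was 99.9% of the highest SE in the table, that of Cbln4 98.5% and that of Cbln2 97.9%. Grid1 stood at 46.4% and the neurexins at 65.6% (Nrxn2) and 63.7% (Nrxn3) of that highest value. The highest SE was 0.138 in all 3 tables, although the mean normalized counts reach down to 6.83, 24.7 and 0.523 in humanized against WT mice, Grn+/- against WT and humanized against Grn+/- mice. A shared upper limit of this kind is what a zero-centred prior on fold changes gives. If the authors used one, which no source used here states, the fold changes of the cerebellins are drawn towards 0 more than that of Grid1, and sizes cannot be compared directly between these genes. An SE near the limit, and an interval made from it, would then reflect the prior as well as the spread between mice.

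**Figure D2:**
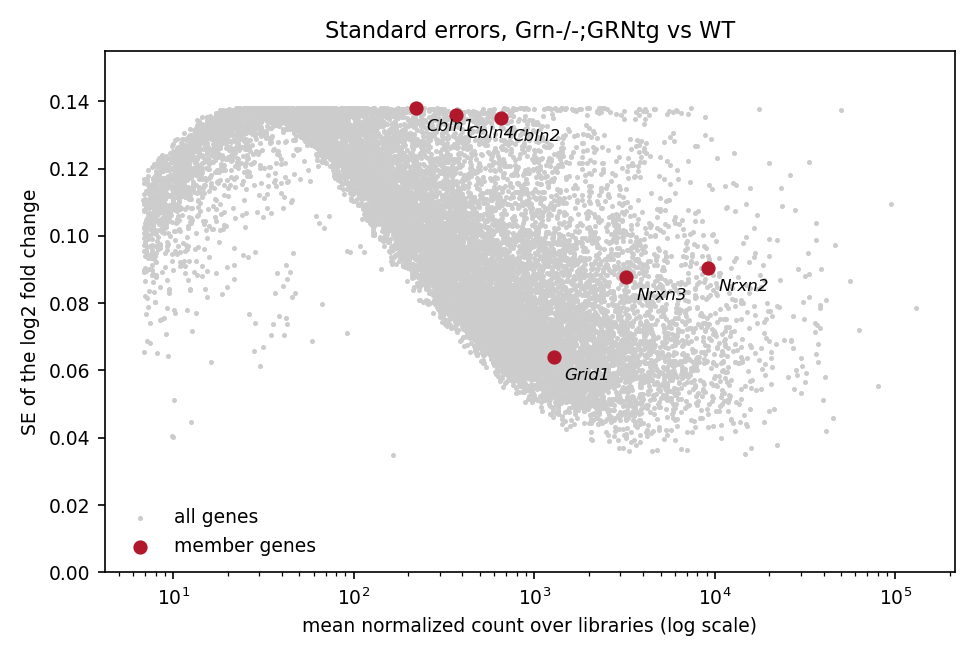
SE of the log2 fold change (vertical axis) against the mean normalized count (horizontal axis, log scale) for every gene of Grn-/-;GRNtg against WT in grey and the 6 members in red. Cbln1, Cbln2 and Cbln4 lie at the upper edge near 0.138, and Grid1 lies far below it at 0.064.

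Partners of the bridge were followed in 5 lists of 50 genes, 49 of which stand in a table. Among 22 neurexin ligands and partners outside the cell, 3 were higher and 0 lower in humanized against WT mice, beside 1.81% and 3.05% of all genes, and 16 had a positive sign, with a median log2 fold change of 0.12 where that of all genes was 0.01. Fam19a1, a secreted protein that binds neurexins, rose by 0.61 ± 0.129, Lrrtm4, a postsynaptic neurexin ligand, by 0.44 ± 0.107 and Nxph1, the neurexophilin ligand of alpha-neurexins, by 0.31 ± 0.081 in the authors' deposited table (adjusted p = 0.00058, 0.0043 and 0.0076). The neuroligin Nlgn1 was at 0.28 (SE 0.10) and missed the threshold (adjusted p = 0.075, the authors' deposited table), and Nlgn2 and Nlgn3 were at 0.09 ± 0.055 and 0.07 ± 0.089 there.

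Of the ligands, 21 stand in the table of Grn+/- against WT, where 2 were higher and 0 lower, beside 2.29% and 4.51% of all genes, with a median of 0.02 beside 0.01 for all genes. Nxph1 rose by 0.32 ± 0.081 (adjusted p = 0.0049), close to its value in Grn-/-;GRNtg, and Car10, a secreted carbonic anhydrase-related ligand of neurexins, rose by 0.25 ± 0.083 (adjusted p = 0.044) in the authors' deposited table. Fam19a1 was at 0.36 ± 0.129 with adjusted p = 0.069 and Lrrtm4 at 0.17 ± 0.108 (adjusted p = 0.40, the authors' deposited table). Between humanized and Grn+/- mice 0 of 22 passed by the authors' Wald test, beside 82 of 17562 over all genes. At an unadjusted p under 0.05 there were 5, beside 1578 of 17562 over all genes. Among those 5 was Nxph4, at 0.47 ± 0.138 (adjusted p = 0.081, the authors' deposited table), which was at 0.38 ± 0.138 in Grn-/-;GRNtg and -0.09 ± 0.138 in Grn+/- against WT in the authors' deposited tables. Both mutant groups are set against the same WT mice, so their values are not independent of each other.

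The C1q-like proteins are relatives of the cerebellins that bind the adhesion receptor Adgrb3 (BAI3), and 4 of the 5 listed genes stand in the tables. C1ql2, best known from mossy fibres of the hippocampus, passed in humanized against Grn+/- mice, at 0.50 ± 0.124 (adjusted p = 0.019, the authors' deposited table), where 0.319% of all genes were higher. As with Cbln1, its values against WT had opposite signs, 0.15 ± 0.127 in Grn-/-;GRNtg and -0.35 ± 0.127 in Grn+/- (adjusted p = 0.52 and 0.067) in the authors' deposited tables. Its mean normalized count was 77.2, so a minimum count of 200 leaves it out whatever its fold change. It still passed with a minimum count of 50. Adgrb3 itself rose in humanized against WT mice, by 0.31 ± 0.086 (adjusted p = 0.015, the authors' deposited table), and was at 0.19 ± 0.087 in Grn+/- against WT (adjusted p = 0.18) there. C1ql1 and C1ql3 passed in no comparison, at 0.17 ± 0.104 and 0.20 ± 0.138 in humanized against WT mice in the authors' deposited table.

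Inner partners of neurexins and GluD receptors, 16 scaffold and adaptor genes, were counted in the same way. Against WT, 0 were higher and 2 lower in humanized mice, beside 1.81% and 3.05% of all genes: Ptpn4, a tyrosine phosphatase of the postsynaptic side, fell by 0.54 (SE 0.138) and the postsynaptic scaffold Shank3 by 0.24 (SE 0.066) in log2 units, per the authors' deposited table (adjusted p = 0.0064 and 0.013). The counts were 1 higher and 5 lower in Grn+/- against WT, beside 2.29% and 4.51% of all genes, so lower calls outnumbered higher ones in the list as they did over all genes. Ptpn4 fell by 0.65 (SE 0.138), Shank2 by 0.34 (SE 0.080), Shank1 by 0.26 (SE 0.079), the neurexin-binding adaptor Apba1 by 0.21 (SE 0.067) and the scaffold Dlg2 by 0.17 (SE 0.053) in the authors' deposited table, with adjusted p between 0.00038 and 0.039. Apba2, a close relative of Apba1, rose by 0.16 ± 0.055 (adjusted p = 0.049, the authors' deposited table), so that the pair passed in opposite directions. In humanized against WT mice Shank2 was at -0.24, Dlg2 at -0.16, Shank1 at -0.18 and Apba1 at -0.07. None of these passed there (adjusted p = 0.057, 0.053, 0.15 and 0.61 by the authors' Wald test). Shank3 was at -0.09 in Grn+/- against WT and did not pass (adjusted p = 0.48 by that test). The medians of the list were -0.06 in Grn-/-;GRNtg and -0.02 in Grn+/- against WT. Cask, the kinase-like scaffold bound to neurexin tails, was at -0.0002 ± 0.061 and 0.06 ± 0.061 in the same order in the authors' deposited tables.

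**Figure D3:**
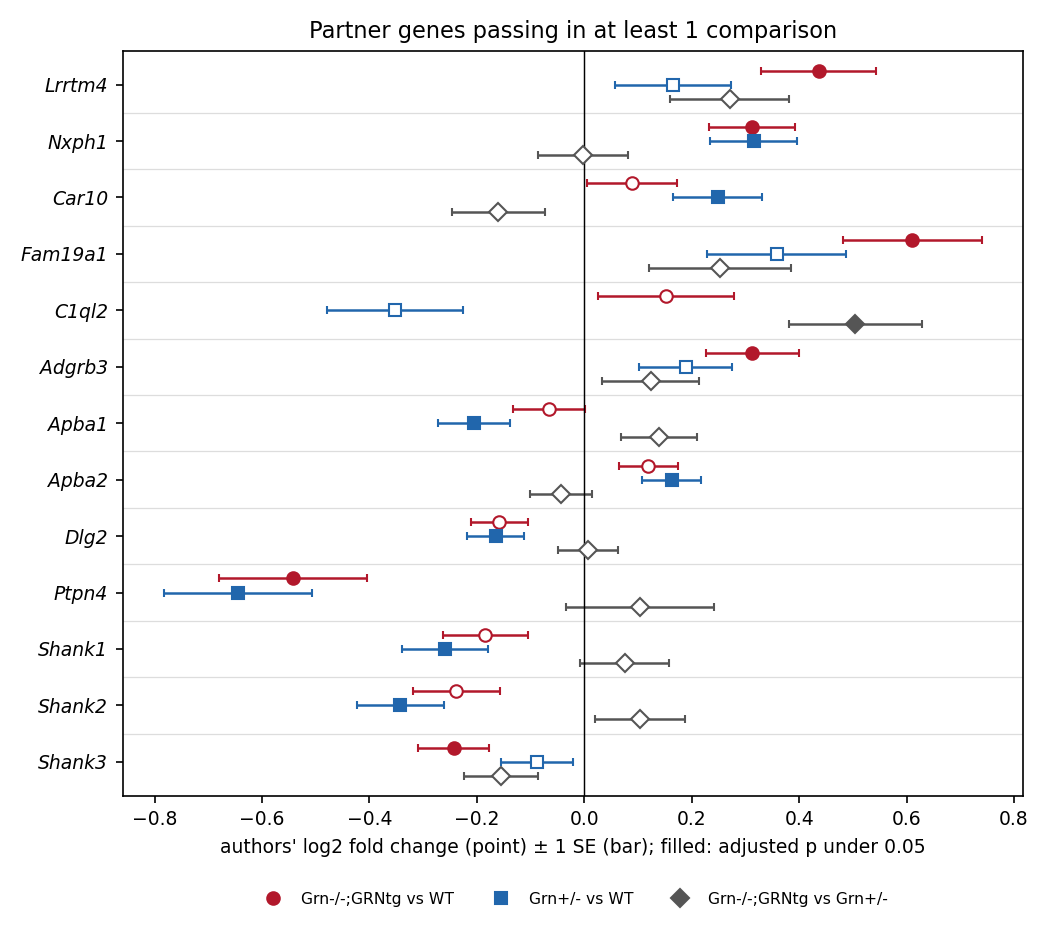
Log2 fold change (horizontal axis) of every partner gene that passed in at least 1 comparison, with points for the authors' deposited value, bars for 1 SE and filled points for an adjusted p under 0.05. Lrrtm4, Nxph1, Fam19a1, Car10, Adgrb3 and Apba2 pass above 0 in 1 or both comparisons with WT, Ptpn4, Apba1, Dlg2 and the Shank genes pass below 0, and C1ql2 passes between the mutant groups.

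Between humanized and Grn+/- mice 0 of the 16 inner partners passed by the authors' Wald test, beside 82 of 17562 over all genes. Of them, 3 had an unadjusted p under 0.05, beside 1578 of 17562 over all genes. The last list held 6 genes of neurexin splicing and shedding, among them Khdrbs1, Khdrbs2 and Khdrbs3, whose proteins regulate the neurexin insert that cerebellins bind. None of the 6 passed in any comparison by the authors' Wald test, and the number at an unadjusted p under 0.05 was 1 in humanized against WT mice, 1 in Grn+/- against WT and 0 in humanized against Grn+/- mice. Over all genes the numbers were 3068 of 14961, 2722 of 13482 and 1578 of 17562 in the same order. The Khdrbs genes lay between -0.06 and 0.17 on the log2 scale across the authors' deposited tables. After scaling by the robust spread, 0 partner genes passed in each of the 3 comparisons.

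Cbln1 is far more abundant in cerebellum and parts of the thalamus and hypothalamus than in cortex, so markers of neighbouring tissue are given beside it. Their mean normalized counts in the authors' deposited tables spanned a wide range within each list. The cerebellar markers ran from 0.641 for Gabra6 of granule cells and 2.18 for Pcp2 of Purkinje cells to 325 for Zic2. The thalamic markers ran from 1.72 for Gbx2 to 793 for Rora, with Ntng1 at 399 and Slc17a6 at 379. The hypothalamic neuropeptide and transmitter markers ran from 0.997 for Hcrt to 33.6 for Trh. Of 10 cerebellar markers 9 stand in humanized against Grn+/- mice, where 0 passed, 5 were positive and the median log2 fold change was 0.01. Over all genes 82 of 17562 passed there. Gabra6, Pcp2, Barhl2 and Fat2 averaged between 0.641 and 6.18 normalized counts, and the median is the value of Pcp2. Genes at such counts could hardly pass, so nothing is read from this 0 or this median. Fewer of them stand in the tables against WT, where 3 of 5 were positive in Grn-/-;GRNtg (median 0.02) and 3 of 4 in Grn+/- (median 0.19). The only cerebellar marker to pass in any comparison was Car8, which fell by 0.60 (SE 0.128) in humanized against WT mice in the authors' deposited table. Neurod1 was the highest cerebellar marker in that comparison, at 0.33 ± 0.116, and did not pass (adjusted p = 0.070 by the authors' Wald test). No thalamic marker passed in any comparison by the authors' Wald test, with 2, 2 and 1 at an unadjusted p under 0.05 in humanized against WT mice, Grn+/- against WT and humanized against Grn+/- mice. Over all genes the numbers were 3068 of 14961, 2722 of 13482 and 1578 of 17562 in the same order. Of the 11 thalamic markers in the tables against WT, 8 were negative in Grn-/-;GRNtg, with a median of -0.05, and 8 were negative in Grn+/-, with a median of -0.15. The sign of the thalamic median was thus that of Cbln1 in Grn+/- against WT and opposite to it in humanized against WT mice, and the part of these markers in the values of Cbln1 was not tested. In humanized against Grn+/- mice 6 of 12 were positive, with a median of 0.01, and Ntng1 was the highest at 0.37 ± 0.129 (adjusted p = 0.23, the authors' deposited table). Ntng1 was also the highest thalamic marker in humanized against WT mice, at 0.38 ± 0.132 (adjusted p = 0.061 by the authors' Wald test). Of 10 hypothalamic markers 9 stand in humanized against Grn+/- mice, with 0 passing, 5 positive and a median of 0.02. Hcrt, Otp, Agrp, Pmch, Oxt and Avp averaged between 0.997 and 6.55 normalized counts, and the median is the value of Pmch. Nothing is read from the 0 or the median of this list either. Against WT 3 stand in each table, with medians of 0.11 in Grn-/-;GRNtg and 0.04 in Grn+/-. Trh was the highest of those 3 in Grn-/-;GRNtg, at 0.32 ± 0.115, and did not pass (adjusted p = 0.074 by the authors' Wald test).

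Markers of the claustrum and of the deepest cortical layer shared a sign with Cbln1 in both comparisons of humanized mice, but not as a list in Grn+/- against WT. All 6 of them were positive in humanized against WT mice and in humanized against Grn+/- mice, with medians of 0.21 and 0.16, and 3 of 6 were positive in Grn+/- against WT, with a median of 0.04. None of them passed in any comparison by the authors' Wald test, with 3, 2 and 0 at an unadjusted p under 0.05 in humanized against WT mice, humanized against Grn+/- mice and Grn+/- against WT. Over all genes the numbers were 3068 of 14961, 1578 of 17562 and 2722 of 13482 in that order. Ctgf, a marker of layer 6b, was at 0.38 ± 0.136 in humanized against Grn+/- mice and Cplx3 was at 0.23 ± 0.109 there in the authors' deposited table, with adjusted p = 0.25 and 0.48. In Grn+/- against WT Ctgf was at -0.26 ± 0.134 and Cplx3 at -0.01 ± 0.106, neither passing. Whether the dissected cortex held different shares of these layers was not tested.

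Cell class markers were set beside the members in the same way, and their counts stand beside 1.81% of all genes higher and 3.05% lower in humanized against WT mice, and 2.29% higher and 4.51% lower in Grn+/- against WT. Of 6 excitatory neuron markers 1, Camk2a, fell in humanized against WT mice, by 0.20 (SE 0.055, the authors' deposited table), and the list median was -0.12. Of 8 interneuron markers 0 passed in each comparison, with medians of 0.06 in Grn-/-;GRNtg and 0.09 in Grn+/- against WT, and Sst, which marks cells known to make Cbln4, was at 0.20 ± 0.097 in humanized against WT mice in the authors' deposited table. Endothelial markers had a median of -0.32 in humanized against WT mice, with 3 of 6 lower: Flt1 (-0.36 ± 0.090), Kdr (-0.40 ± 0.117) and Slco1c1 (-0.36 ± 0.087) in the authors' deposited table. In Grn+/- against WT their median was -0.17, with 5 of 6 negative and 0 passing. Astrocyte markers had 2 of 6 lower in Grn+/- against WT, Gja1 (-0.26 ± 0.085) and Slc1a2 (-0.22 ± 0.073) in the authors' deposited table. Astrocyte medians were -0.13 in Grn+/- and -0.14 in Grn-/-;GRNtg against WT, with 5 of 6 negative in both. In Grn-/-;GRNtg against WT Gja1 was at -0.18 ± 0.085 and Slc1a2 at -0.19 ± 0.073. Neither passed there (adjusted p = 0.19 and 0.11 by the authors' Wald test). All 6 oligodendrocyte markers were below 0 in each comparison, with medians of -0.22 in Grn-/-;GRNtg against WT, -0.14 in Grn+/- against WT and -0.08 in humanized against Grn+/- mice. No oligodendrocyte or microglial marker passed in any comparison by the authors' Wald test, and 0 of 6 in each list had an unadjusted p under 0.05 in each comparison. Over all genes, 3068 of 14961 had one in Grn-/-;GRNtg against WT, 2722 of 13482 in Grn+/- against WT and 1578 of 17562 in humanized against Grn+/- mice. The part of these lists in the values of Cbln1 and Grid1 was not tested.

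**Figure D4:**
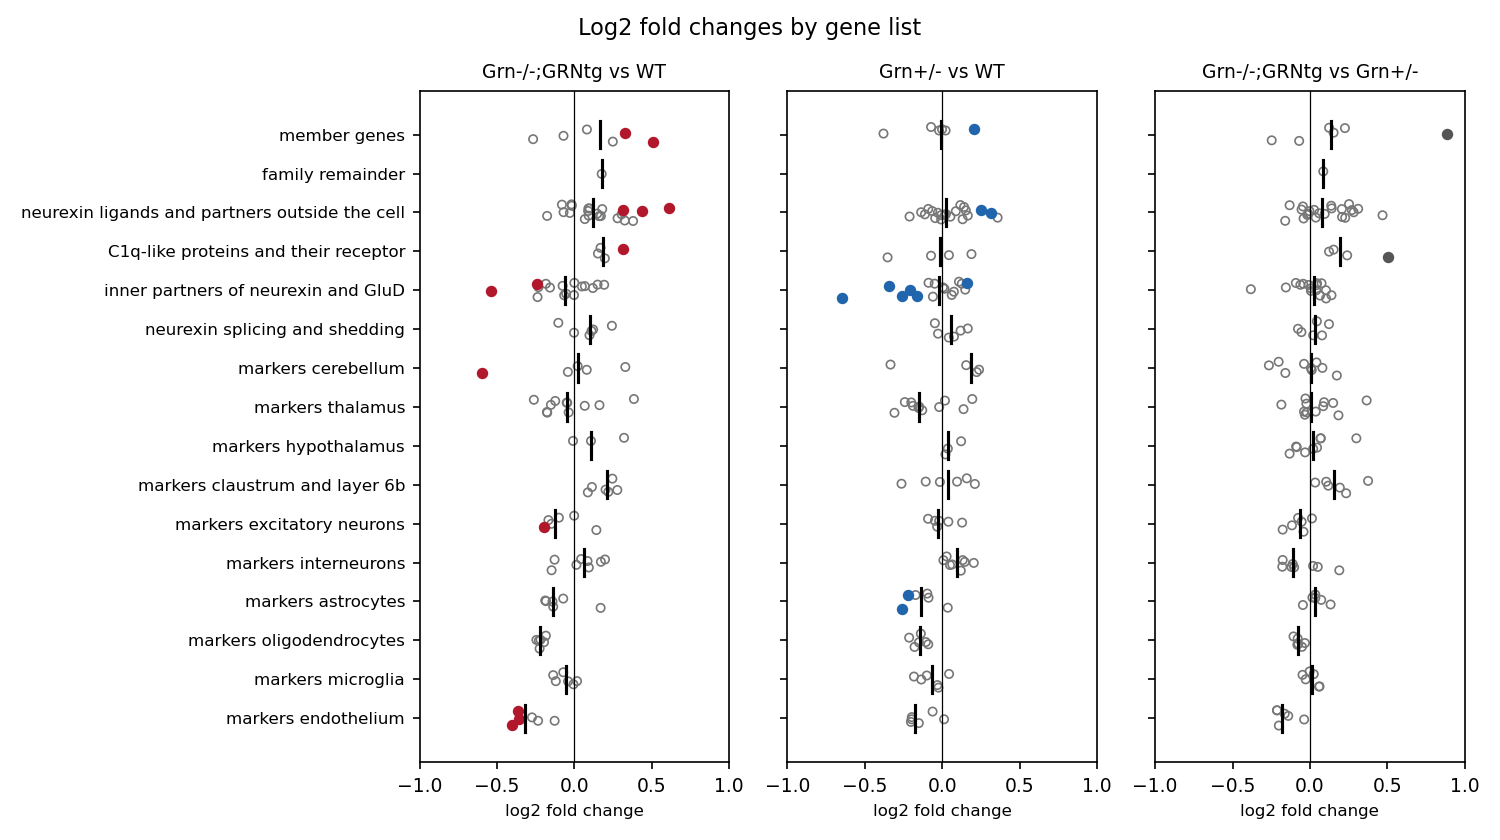
Log2 fold changes (horizontal axis) of the 6 members, the 5 partner lists and the 10 marker lists in the 3 comparisons, 1 point per gene, filled where the authors' adjusted p was under 0.05, with a black bar at the median of each list. The neurexin ligands have a median of 0.12 in Grn-/-;GRNtg against WT and the claustrum and layer 6b markers are all above 0 there, while the inner partners pass mostly below 0 in Grn+/- against WT.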

How the data were processed

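Per the labels' protocols, total cortical RNA was made into strand-keeping libraries. The submitters' processing notes name DESeq2 1.34.0, R 4.1.2 and the build mm10, with no role. The aligner, the counter, its strand setting and the annotation are not given in the sources used. Per the file headers, the deposited columns are a mean normalized count (a signal averaged over libraries), a log2 fold change with its SE, the Wald statistic (a score) and the p-value with its adjusted p-value. Recomputing showed that the statistic is fold change over SE, that adjustment is Benjamini-Hochberg over each table, and that the 3 fold changes add up, so the comparisons share 1 fit.

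The tables list 14961, 13482 and 17562 genes for Grn-/-;GRNtg against WT, Grn+/- against WT and Grn-/-;GRNtg against Grn+/-. The 2 rows naming no gene, with 17.0% and 0.606% of mean normalized counts, were left out. Depth per mouse is unknown, and p-values are those of the authors' Wald test, which sets each fold change against its SE. Passing means an adjusted p under 0.05. Intervals of 95% are 1.96 SE on either side. No list was tested as a set.

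The 15 gene lists held 126 entries, of which 123 matched a table row, 4 under an alternative symbol. Members, lists and the rule for named genes were chosen with earlier results of these data known. The rule names all members, Grn, the rest of the families (of which only Cbln3 is reported here) and every listed partner or marker that passes in at least 1 comparison. Other genes were named after their values were seen. Alternatives were other thresholds, count minimums, gene sets for adjustment, a minimum fold change, centring, rescaled statistics and the authors' tables of significant genes. Gene positions and exon lengths come from GENCODE M21 (GRCm38, which mm10 names). Functions were tested on simulated data. Python 3.11.15, numpy 2.4.6, pandas 2.3.3, scipy 1.17.1 and matplotlib 3.10.9 were used.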

Additional observations from a re-analysis of the deposited data

How the results depend on the processing

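No paired analysis was possible because the tables used here hold no value per mouse, and for the same reason no mouse could be left out. In Grn-/-;GRNtg against WT 2 members passed, and 1 did (Grid1) at an adjusted p under 0.01 and 0 when statistics were scaled by their robust spread. In Grn+/- against WT 1 member passed, with 0 at 0.01, 2 (Grid1 and Cbln1) at 0.1, 0 with an absolute log2 fold change of at least 0.3 and 0 with rescaled statistics. In Grn-/-;GRNtg against Grn+/- the count was 1, Cbln1, under every alternative run. Partner genes passing in Grn-/-;GRNtg against WT numbered 6, with 13 at 0.1 and 0 with rescaled statistics. In Grn+/- against WT 8 became 3 at 0.01, 3 with the minimum fold change and 0 rescaled. In Grn-/-;GRNtg against Grn+/- 1 (C1ql2) became 0 at 0.01, 2 at 0.1, 0 with a mean normalized count of at least 200 and 0 rescaled. The minimum of 200 leaves C1ql2 out by its count alone. Rescaling leaves 5, 3 and 29 of all genes where 728, 917 and 82 passed, in Grn-/-;GRNtg against WT, Grn+/- against WT and Grn-/-;GRNtg against Grn+/-. In the same order, 254, 357 and 35 of all genes passed at 0.01 and 1396, 1423 and 159 at 0.1. With the minimum fold change 454, 499 and 69 of all genes passed. The member and partner counts stand beside these numbers, and nothing is read from their moves. For all genes of Grn-/-;GRNtg against Grn+/-, 43 passed over the genes of all 3 tables, 40 with a count of at least 50 and 32 with at least 200, and the cause was not tested. Subtracting the median log2 fold change changed no member's sign or call. Grn passed under every alternative run.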

Other observations

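The genes whose fold changes most resembled those of Cbln1 and Grid1 were found by the distance between their pairs of deposited log2 fold changes against WT, among genes that passed in the same comparisons and direction. For Cbln1 there were 7 such genes, and the nearest were Aloxe3, a lipoxygenase-family gene (distance 0.28), Pcsk5, a proprotein convertase (0.37), and Prr36 (0.37). Aloxe3 was at 0.47 ± 0.124 in Grn-/-;GRNtg and -0.10 ± 0.126 in Grn+/- against WT in the authors' deposited tables. None of the 3 lay as far below WT in Grn+/- as Cbln1, with Pcsk5 and Prr36 both at -0.01 there in the authors' deposited table. For Grid1 there were 64 such genes, and the nearest were the glycolytic enzyme gene Aldoa (distance 0.04), Ndufb6, a subunit of respiratory complex I (0.04), and Pddc1 (0.05). Aldoa was at 0.29 ± 0.068 in Grn-/-;GRNtg and 0.23 ± 0.068 in Grn+/- against WT in the authors' deposited tables. The likeness rests on 2 fold changes that share the same WT mice, and says nothing of shared function.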
